A study of Mus musculus with 4 samples.

Results

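Adenylyl cyclases (Adcy genes), cyclic nucleotide phosphodiesterases (Pde genes) and A-kinase anchoring proteins (Akap genes) were described in the hypothalamus of Western diet-fed mice, 2 libraries of WT and 2 of Tas1r3-/-. The members were all gene symbols starting with Adcy, Pde or Akap followed directly by a digit, whatever their values. RefSeq transcripts were summed per symbol. The table held 45 such genes of 16335 in all, namely 9 Adcy, 22 Pde and 14 Akap genes with 109 transcripts. A further 6 symbols of the name table, Adcy10, Akap4, Pde6a, Pde6c, Pde6g and Pde6h, were not analysed here. Of the 45 members, 42 passed the filter on low counts and were tested among 14340 genes, whereas Akap3, Akap14 and Pde6b did not pass it. In each library the members held between 0.319% and 0.356% of the counts of named genes.

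Adenylyl cyclases make cAMP from ATP when receptors that couple to stimulatory G proteins are active, and calcium with calmodulin switches some of them on and others off. Phosphodiesterases break down cAMP, cGMP or both. A-kinase anchoring proteins tether protein kinase A (PKA), the main target of cAMP, to membranes, centrosomes, mitochondria and the nucleus, often beside a cyclase and a phosphodiesterase. In hypothalamic neurons this pathway carries signals of peptide and hormone receptors, and its arm through CREB acts on genes with cAMP response elements. TAS1R3 is a G protein-coupled receptor subunit for sweet and umami stimuli, and the comparison bears on which parts of cAMP signaling differ when it is missing.

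All 4 libraries came from the hypothalamus of male C57BL/6 mice given a 60% fat diet with a 30% sucrose solution (Western diet, WD) for 12 weeks. The WT WD group were WT littermates and the Tas1r3-/- WD group carried a constitutive null allele not limited to a cell type, so that the gene was lost in taste and peripheral tissues as well as in brain. The mice were young adults when the diet began, and the study describes the genotypes as matched for age and weight. It also reports that on WD the Tas1r3-/- mice gained less weight than WT mice. The study's account of this comparison counts more mice a group than the libraries analysed here, and no label says whether a library was one mouse or a pool, so p-values measure only the spread between these libraries. Normal diet libraries were not analysed here.

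Library totals lay between 5874782 and 6273772 estimated counts. Levels are given as CPM, that is, counts scaled to the size of the library. The limit that a count of 0 leaves is 3 counts, or 0.482 to 0.526 CPM, for counting error only. Tas1r3 was measured at 6.01 and 4.45 CPM in WT WD and at 1.12 and 1.23 CPM in Tas1r3-/- WD (log2 fold change −2.13 ± 0.42 (SE), n = 2 libraries a group, adjusted p = 0.756 by edgeR's quasi-likelihood test). Its direction matched the genotype labels in all 4 libraries, with 7 counts left in each knockout library.

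The library labelled WT WD replicate 2 went against its tissue label. The summed level of 14 hypothalamic neuron markers was 66.4 CPM there against 2115 CPM in the other WT WD library and 1523 and 1483 CPM in Tas1r3-/- WD, and all 14 were lowest in it. Nkx2-1, a transcription factor of the ventral hypothalamus, was at 0 in it. All 8 thalamus markers were highest in that library (2683 CPM summed, against 550.5 to 737 CPM), and choroid plexus markers summed to 751 CPM against 80.5 to 92.1 CPM. That sum was carried by Ttr at 678 CPM, whereas another of its markers, Prlr, was lowest in the same library at 7.58 CPM. Striatum markers were lowest in it at 159 CPM against 331 to 487 CPM, and those of cortex and hippocampus were highest at 1219 CPM against 836 to 871 CPM. Sums of glial and vascular markers were closer, at 5094 to 6316 CPM for oligodendrocytes, 3561 to 3832 CPM for astrocytes, 376 to 461 CPM for endothelium and mural cells and 253 to 298 CPM for microglia. In bulk tissue, fewer cells of a type and less RNA per cell cannot be told apart. The main counts and most fold changes below are therefore given with and without the library labelled WT WD replicate 2, the plot of fold changes shows both for all 42 tested members, and the part of tissue content in each was not tested.

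**Figure D1:**
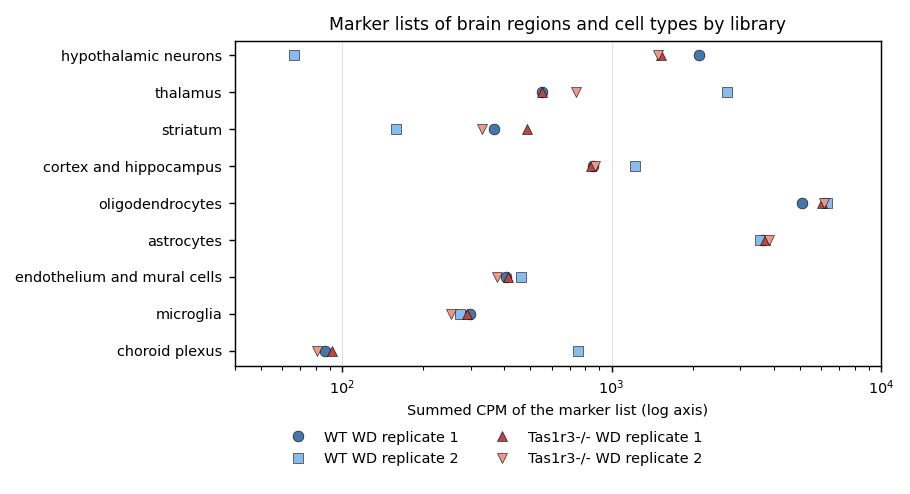
Summed CPM (log axis) of 9 marker lists in each of the 4 libraries, 1 point a library. The library labelled WT WD replicate 2 sits at 66.4 CPM for hypothalamic neurons, where the other libraries sit at 1483 to 2115 CPM, and at 2683 CPM for thalamus, where the others sit at 550.5 to 737 CPM.

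Per kb of the longest protein-coding transcript, mean levels over the 4 libraries ran from 59.0 CPM per kb for Akap8l, a nuclear relative of Akap8, down to 0.239 CPM per kb for Pde6b, the photoreceptor enzyme. Pde2a, a dual-specificity enzyme that cGMP stimulates, followed at 50.0 CPM per kb and Pde1b, a calmodulin-dependent one, at 45.8 CPM per kb. The highest cyclase was Adcy5 at 34.5 CPM per kb, and the highest anchor after Akap8l was Akap11 at 28.1 CPM per kb. Pde4a, Pde4b and Pde4d, the cAMP-specific enzymes that rolipram inhibits, were at 26.9, 18.9 and 10.7 CPM per kb, whereas their relative Pde4c was at 0.997 CPM per kb. The bottom of the order was held by Pde3a, Pde5a and 3 genes of sperm flagella, cilia or photoreceptors, Akap14, Akap3 and Pde6b. These 3 lay at 0.172 to 1.65 CPM in single libraries, near the limit of detection.

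**Figure D2:**
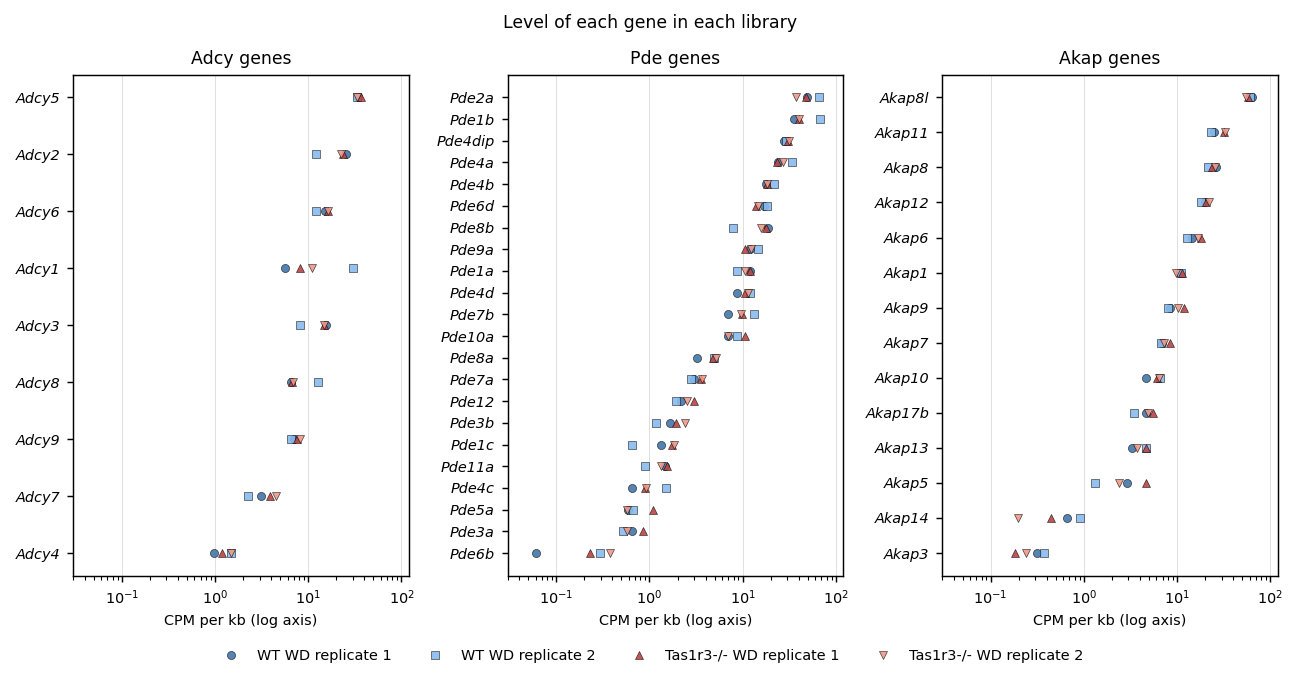
Level of each of the 45 genes in CPM per kb of transcript (log axis), with 1 point for each library and genes ordered by their mean. Most genes hold their 4 points close together, and the widest spread among the cyclases is that of Adcy1, where WT WD replicate 2 stands to the right.

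Differential expression called none of the 42 tested members between Tas1r3-/- WD and WT WD, where a call by edgeR's quasi-likelihood test needed 1.5-fold or more and an adjusted p below 0.05. The background was the same, with 0 of 14340 genes called (0.0%) and a smallest adjusted p of 0.756. At an unadjusted p under 0.05, 4 members were higher in Tas1r3-/- WD and 0 lower, 9.52% of those tested beside 5.38% of all genes (3.5% higher, 1.88% lower). They were the cyclase Adcy7 and the anchors Akap6, Akap9 and Akap11, each with an adjusted p of 0.756. DESeq2 also called 0 members (0.0558% of all genes) and put 2 of them, Adcy7 and Akap11, at an unadjusted p under 0.05 (2.74% of all genes).

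For 14 of the 42 members, beside 20.6% of all genes, both knockout libraries exceeded both WT WD ones, and for 3, beside 19.0%, both were lower. Together 17 of 42 had groups that did not overlap, which is 40.5% beside 39.6% of all genes. Fold changes were positive for 30 of 42 members, beside 49.0% of all genes, and their median was 0.17 on the log2 scale against −0.0057 for all genes. The median was 0.22 for 9 Adcy genes, 0.13 for 21 Pde genes and 0.19 for 12 Akap genes, and 0.084, 0.18 and 0.23 without WT WD replicate 2. The members of the 14 were Adcy6, Adcy7, Adcy9, Akap6, Akap7, Akap9, Akap11, Akap12, Akap17b, Pde1c, Pde3b, Pde4dip, Pde7a and Pde12.

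Without the library labelled WT WD replicate 2, 0 of 42 members were called, beside 32 of 14710 genes (0.218%). The fit then assumed that the lone WT WD library varied like the Tas1r3-/- WD pair. The 10 members at an unadjusted p under 0.05 were Adcy1, Adcy7, Akap6, Akap9, Akap10, Akap11, Akap13, Pde4d, Pde7b and Pde8a, all higher in Tas1r3-/- WD. This is 23.8% of the members beside 13.7% of all genes (8.32% higher, 5.35% lower). The median over the members was 0.18, near that of all 4 libraries, but only 29 of 42 members kept the sign of their fold change. Adcy7, Akap6, Akap9 and Akap11 were the members under 0.05 in both fits.

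Without WT WD replicate 1, the remaining WT WD library being the one that goes against its label, 11 of 44 members were called (25% beside 14.3% of all genes). These were Adcy2, Adcy3, Adcy7, Akap5, Akap17b, Pde1c and Pde8b, higher in Tas1r3-/- WD, and Adcy1, Adcy8, Pde1b and Pde2a, lower. At an unadjusted p under 0.05 were 22 (50% beside 33.7%). Among all 42 tested members, WT WD replicate 2 was the highest library for 14 (background 33.9%) and the lowest for 22 (background 34.6%). Leaving out either Tas1r3-/- WD library gave 0 members called (0.0% of all genes) and 0 at an unadjusted p under 0.05, beside 0.628% of all genes without replicate 1 and 0.885% without replicate 2. The WT WD libraries were at least 2-fold apart for 5 members, Adcy1, Adcy2, Akap5, Pde4c and Pde8b, beside 10.6% of all genes.

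**Figure D3:**
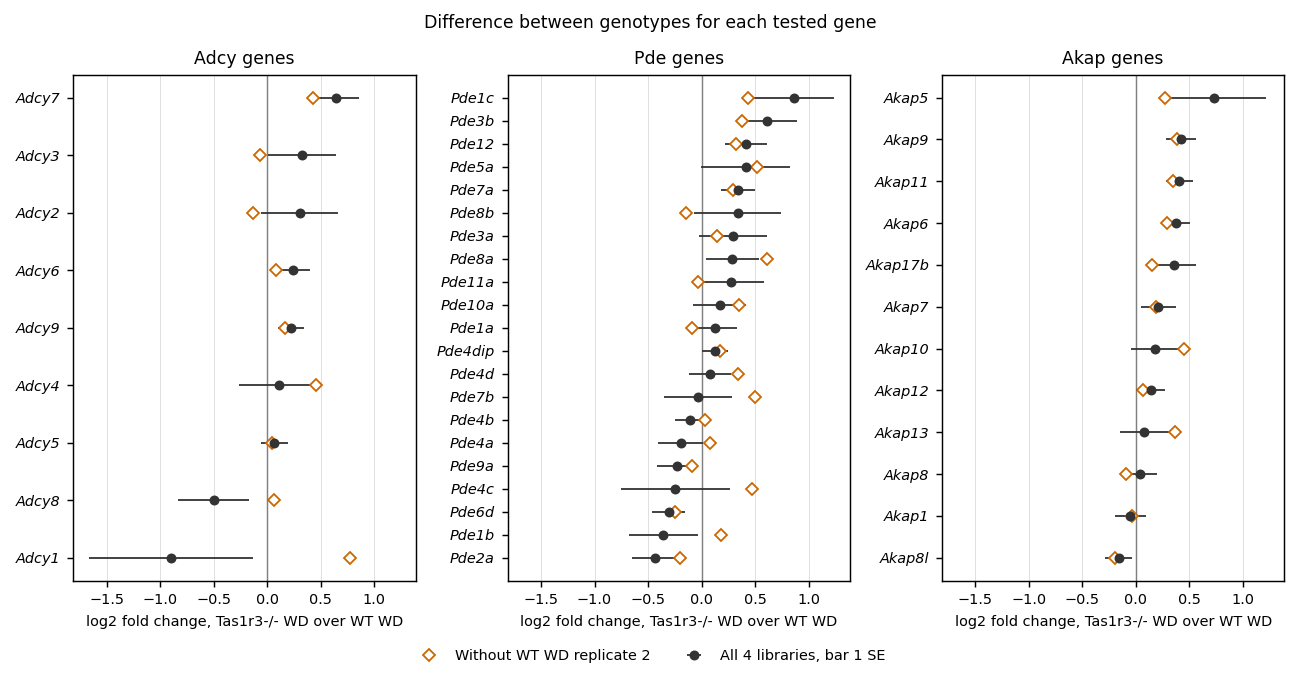
Log2 fold change of Tas1r3-/- WD over WT WD for the 42 tested genes, from all 4 libraries with a bar of 1 SE (filled circles) and without WT WD replicate 2 (open diamonds). Adcy1 moves from −0.90 to 0.78, whereas Akap6, Akap9 and Akap11 lie between 0.29 and 0.42 in both.

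Promoters were read because CREB acts through cAMP response elements. RefSeq start sites of 38 members gave 67 windows of 250 bases before the start, each found once in GRCm39. The full element TGACGTCA was in 0 of 67 windows, beside 1.55% of 32851 windows of all genes. Its core TGACG, searched as TGACG and CGTCA to cover both strands and contained in the full element, was in 7 windows (10.4% beside 17.8%). These belonged to 7 of the 38 members, 18.4% beside 19.8% of all genes, namely Adcy7, Adcy9, Akap11, Pde1a, Pde4a, Pde4b and Pde8a. A match is a run of letters, not a bound site, and no match says only that these letters are not in the window.

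The bases before a start of the 4 members at an unadjusted p under 0.05 are shown 5′ to 3′ in lower case, with cores in capitals, as read from RefSeq's mouse windows (GRCm38.p6 table) and placed on GRCm39. Stretches end where the gene's own exons begin. For Adcy7 and Akap11 only the window that holds a core is shown, and the other windows of these genes held none. The Adcy7 stretch, chr8:89009370-89009619 on the plus strand, lies in an intron of the longer annotated gene and has 1 core. The Akap11 stretch, chr14:78774301-78774550 on the minus strand, lies upstream of the gene and has 3 cores, where a noncoding gene on the other strand is also annotated. The Akap9 stretch, chr5:3977936-3978053, and the Akap6 stretch, chr12:52745916-52746016, both on the plus strand and upstream, have none.
Adcy7: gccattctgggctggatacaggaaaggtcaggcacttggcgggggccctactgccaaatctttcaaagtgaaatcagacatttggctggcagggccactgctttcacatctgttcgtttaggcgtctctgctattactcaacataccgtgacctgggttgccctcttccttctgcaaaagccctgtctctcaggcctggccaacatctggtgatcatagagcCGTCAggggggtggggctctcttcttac
Akap11: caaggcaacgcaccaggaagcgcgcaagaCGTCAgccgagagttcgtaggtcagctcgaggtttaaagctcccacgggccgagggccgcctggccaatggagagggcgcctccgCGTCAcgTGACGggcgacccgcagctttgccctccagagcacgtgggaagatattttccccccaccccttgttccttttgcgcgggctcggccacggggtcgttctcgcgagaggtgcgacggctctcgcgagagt
Akap9: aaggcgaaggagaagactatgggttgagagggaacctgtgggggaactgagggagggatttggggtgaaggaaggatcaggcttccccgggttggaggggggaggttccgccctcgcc
Akap6: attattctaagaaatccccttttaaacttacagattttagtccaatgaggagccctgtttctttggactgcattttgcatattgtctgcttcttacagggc

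Among the cyclases, Adcy7 had the highest fold change. Adcy7, which G beta-gamma stimulates and which is prominent in immune cells, lies on chromosome 8 from 88998882 to 89059394 (GRCm39, plus strand). It was at 28.7 and 20.8 CPM in WT WD and at 35.8 and 41.6 CPM in Tas1r3-/- WD. The groups did not overlap, with the lowest value in WT WD replicate 2 (log2 fold change 0.65 ± 0.21 (SE), adjusted p = 0.756 by edgeR). Without that library the log2 fold change was 0.43 (adjusted p = 0.314). The marker sum of microglia, cells of immune type, was 298 and 274 CPM in WT WD, against 290 and 253 CPM in the knockout. A link between Adcy7 and this sum was not tested.

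The other cyclases of that type were Adcy2 and Adcy4. Adcy2 was at 114 and 54.6 CPM in WT WD and at 106 and 101 CPM in Tas1r3-/- WD. Only WT WD replicate 2 stood apart, at less than any other library, and the log2 fold change went from 0.30 ± 0.36 (SE) to −0.13 without it. Adcy4 was low, at 3.44 to 5.27 CPM in the 4 libraries, with a log2 fold change that went from 0.11 to 0.45 without WT WD replicate 2.

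The cyclases that calcium and calmodulin stimulate differed most between the WT WD libraries. Adcy1, a neuronal cyclase of synaptic plasticity that is abundant in the forebrain, was at 69.3 and 374 CPM in WT WD and at 101 and 137 CPM in Tas1r3-/- WD. The library labelled WT WD replicate 2 was above every other one, and the largest log2 difference between WT WD libraries among the members, 2.43, was that of Adcy1. Its log2 fold change was −0.90 ± 0.77 (SE, adjusted p = 0.777 by edgeR) with all libraries and 0.78 (adjusted p = 0.126) without WT WD replicate 2, so the sign turned. Adcy8, the other neuronal cyclase of the group, was at 50.2 and 98.2 CPM in WT WD and at 51.3 and 53.7 CPM in Tas1r3-/- WD. It too was highest in that library, and its log2 fold change went from −0.50 ± 0.33 (SE) to 0.064. Adcy3, the cyclase of neuronal cilia and olfactory neurons, had the opposite order, at 117 and 61.3 CPM in WT WD, against 111 and 113 CPM in the knockout, and its log2 fold change went from 0.33 ± 0.32 (SE) to −0.065.

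Of the cyclases that calcium inhibits, Adcy5 varied little. Adcy5, the main cyclase of the striatum, was at 247 and 239 CPM in WT WD and at 267 and 244 CPM in Tas1r3-/- WD (log2 fold change 0.069 ± 0.13 (SE), adjusted p = 0.896 by edgeR, and 0.047 without WT WD replicate 2). Its groups overlapped, and its libraries were within 0.13 on the log2 scale in each pair of replicates. Its close relative Adcy6 was at 92.5 and 73.0 CPM in WT WD and at 98.0 and 97.9 CPM in Tas1r3-/- WD. Adcy9, which forskolin activates little, was at 55.9 and 51.9 CPM in WT WD and at 60.6 and 65.3 CPM in Tas1r3-/- WD. Both had groups that did not overlap, with log2 fold changes of 0.24 ± 0.16 (SE) and 0.22 ± 0.13 (SE), and of 0.084 and 0.17 without WT WD replicate 2.

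Of the 8 tested cAMP-specific phosphodiesterases, 4 had a positive and 4 a negative fold change, with a median of 0.024. Leaving out WT WD replicate 2 made 7 of the 8 positive with a median of 0.32, and leaving out WT WD replicate 1 made 3 positive with a median of −0.18. In the Pde4 subfamily, Pde4a was at 112 and 159 CPM in WT WD and at 109 and 128 CPM in Tas1r3-/- WD, and Pde4b lay at 102 to 122 CPM. Pde4d was at 61.0 and 85.2 CPM in WT WD and at 74.9 and 79.8 CPM in Tas1r3-/- WD, with a log2 fold change of 0.081 ± 0.19 (SE), or 0.34 without WT WD replicate 2. Pde4a, Pde4b and Pde4d were each highest in WT WD replicate 2, and the log2 fold change of Pde4a went from −0.20 ± 0.21 (SE) to 0.079 without it. Pde4b was the member on chromosome 4, where Tas1r3 lies, at a distance of 53.5 Mb, and its log2 fold change was −0.11 ± 0.15 (SE), or 0.032 without WT WD replicate 2. Pde4c was at 2.23 and 5.11 CPM in WT WD and at 3.05 and 3.16 CPM in Tas1r3-/- WD, and its fold change turned from −0.24 ± 0.51 (SE) to 0.47 without WT WD replicate 2. That gene had 13 to 31 counts a library, so its fold change is imprecise.

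Pde7 and Pde8 enzymes break down cAMP with high affinity. Pde7a was at 19.9 and 18.6 CPM in WT WD and at 24.1 and 24.7 CPM in Tas1r3-/- WD, with no overlap (log2 fold change 0.34 ± 0.16 (SE), adjusted p = 0.756 by edgeR, and 0.29 without WT WD replicate 2). Pde7b was at 30.2 and 57.4 CPM in WT WD and at 43.4 and 42.3 CPM in Tas1r3-/- WD, so that the knockout libraries lay between the WT WD ones. Its log2 fold change was −0.033 ± 0.32 (SE) and, without WT WD replicate 2, 0.50. Pde8a was at 14.1 and 21.3 CPM in WT WD and at 20.9 and 22.3 CPM in Tas1r3-/- WD, low in WT WD replicate 1 alone, and its log2 fold change was 0.29 ± 0.25 (SE) with and 0.61 without WT WD replicate 2. Pde8b was at 94.7 and 40.4 CPM in WT WD and at 90.3 and 80.5 CPM in Tas1r3-/- WD. The low WT WD replicate 2 set its positive fold change of 0.34 ± 0.41 (SE), which was −0.15 without that library.

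Among the dual-specificity enzymes, 6 of 8 tested had a positive fold change and the median was 0.22, or 5 of 8 and 0.16 without WT WD replicate 2. The calmodulin-dependent Pde1 genes did not go together. Pde1b, which is abundant in neurons, was at 159 and 303 CPM in WT WD and at 181 and 179 CPM in Tas1r3-/- WD, and only WT WD replicate 2 stood apart (−0.36 ± 0.32 (SE) on the log2 scale, 0.18 without it). Pde1c was at 11.9 and 5.77 CPM in WT WD and at 15.6 and 16.5 CPM in Tas1r3-/- WD. Its groups did not overlap and its log2 fold change of 0.86 ± 0.38 (SE, adjusted p = 0.756 by edgeR) was the highest of all members, but 0.43 (adjusted p = 0.457) without WT WD replicate 2. Pde1a was at 39.9 to 56.0 CPM in the 4 libraries, lowest in the same library, and its log2 fold change went from 0.13 ± 0.20 (SE) to −0.093 without it.

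Pde2a, on chromosome 7 from 101070825 to 101162038 (plus strand), was at 208 and 282 CPM in WT WD and at 201 and 160 CPM in Tas1r3-/- WD. Both knockout libraries lay below both WT WD libraries, although WT WD replicate 1 and Tas1r3-/- WD replicate 1 were close (log2 fold change −0.44 ± 0.21 (SE), adjusted p = 0.756 by edgeR). The value was −0.20 without WT WD replicate 2. Pde3b, which insulin signaling activates, was at 11.0 and 7.75 CPM in WT WD and at 12.7 and 16.0 CPM in Tas1r3-/- WD. There the groups did not overlap (0.61 ± 0.28 (SE) on the log2 scale, 0.38 without WT WD replicate 2). Its relative Pde3a lay at 6.43 to 10.6 CPM with overlapping groups (0.30 ± 0.32 (SE), 0.15 without WT WD replicate 2). Pde10a, the enzyme of striatal projection neurons, was at 55.0 and 68.9 CPM in WT WD and at 83.9 and 55.4 CPM in Tas1r3-/- WD. The striatum marker sum was also highest in Tas1r3-/- WD replicate 1, at 487 CPM. It was lowest in WT WD replicate 2, at 159 CPM, where Pde10a was at 68.9 CPM. A link between Pde10a and this sum was not tested. The log2 fold change of Pde10a was 0.17 ± 0.25 (SE), or 0.35 without WT WD replicate 2. Pde11a was at 12.9 and 7.91 CPM in WT WD and at 13.3 and 11.8 CPM in Tas1r3-/- WD, with overlap, and its log2 fold change went from 0.27 ± 0.31 (SE) to −0.037.

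The cGMP-specific enzymes were low or even. Pde9a, the one with the highest affinity for cGMP, was at 26.3 and 31.8 CPM in WT WD and at 22.8 and 26.8 CPM in Tas1r3-/- WD, with a log2 fold change of −0.23 ± 0.19 (SE), or −0.085 without WT WD replicate 2. Pde5a, the target of sildenafil, was at 4.47 and 5.11 CPM in WT WD and at 8.36 and 4.39 CPM in Tas1r3-/- WD. Its replicates within Tas1r3-/- WD differed by 0.88 on the log2 scale, more than the groups did at 0.41 ± 0.42 (SE), or 0.52 without WT WD replicate 2. Pde6b, the photoreceptor enzyme, was at 0.172 and 0.824 CPM in WT WD and at 0.643 and 1.05 CPM in Tas1r3-/- WD.

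The symbols Pde4dip, Pde6d and Pde12 belong to proteins that are not cyclic nucleotide phosphodiesterases. All 3 had groups that did not overlap, beside 39.6% of all genes. Pde4dip and Pde12 were higher and Pde6d lower in Tas1r3-/- WD. Pde4dip, a scaffold of centrosome and Golgi that binds Pde4 enzymes, was at 244 and 261 CPM in WT WD and at 273 and 277 CPM in Tas1r3-/- WD. The distance was small, with a log2 fold change of 0.13 ± 0.12 (SE), or 0.18 without WT WD replicate 2. Pde6d, a carrier of prenylated proteins to cilia, was at 29.9 and 32.3 CPM in WT WD and at 24.3 and 26.0 CPM in Tas1r3-/- WD (−0.31 ± 0.15 (SE) on the log2 scale, −0.25 without WT WD replicate 2). Pde12, a mitochondrial enzyme that shortens poly(A) tails, was at 17.0 and 14.8 CPM in WT WD and at 23.0 and 19.5 CPM in Tas1r3-/- WD (0.42 ± 0.19 (SE), 0.32 without that library). Adjusted p was 0.756 for Pde6d and for Pde12 by edgeR.

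The anchors were the family with the least difference between WT WD libraries, at a median absolute log2 difference of 0.16 against 0.57 for Adcy and 0.48 for Pde genes (0.29 for all genes). Of 12 tested, 10 had a positive fold change, beside 49.0% of all genes, and 6 had both knockout libraries above both WT WD libraries, beside 20.6%. Leaving out WT WD replicate 2 made 9 of the 12 positive. Akap11, which holds PKA and a glycogen synthase kinase together, lies on chromosome 14 from 78729683 to 78774300 (minus strand), downstream of the stretch with 3 cores. It was at 236 and 219 CPM in WT WD and at 297 and 305 CPM in Tas1r3-/- WD. The groups did not overlap and both replicate pairs were close together (log2 fold change 0.40 ± 0.13 (SE), adjusted p = 0.756 by edgeR). Without WT WD replicate 2 it was 0.35 (adjusted p = 0.215).

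Akap9, a large scaffold of the centrosome and Golgi, lies on chromosome 5 from 3978054 to 4131310 (plus strand). It was at 111 and 105 CPM in WT WD and at 155 and 135 CPM in Tas1r3-/- WD, again without overlap (log2 fold change 0.42 ± 0.14 (SE), adjusted p = 0.756 by edgeR). Akap6, which anchors PKA at the nuclear envelope of neurons and muscle, lies on chromosome 12 from 52746017 to 53202382 (plus strand). It was at 214 and 191 CPM in WT WD and at 271 and 253 CPM in Tas1r3-/- WD (log2 fold change 0.37 ± 0.14 (SE), adjusted p = 0.756 by edgeR). Both were lowest in WT WD replicate 2, and without it their fold changes were 0.39 and 0.29.

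Akap5, the postsynaptic anchor of PKA, calcineurin and protein kinase C, was at 23.0 and 10.5 CPM in WT WD and at 36.6 and 18.8 CPM in Tas1r3-/- WD. It had the highest fold change of the anchors, 0.73 ± 0.49 (SE), but replicate 2 lay below replicate 1 by 1.10 on the log2 scale in WT WD and by 0.95 in Tas1r3-/- WD, and the groups overlapped. Without WT WD replicate 2 the log2 fold change was 0.28. Akap12, or gravin, a scaffold near the plasma membrane, was at 130 and 117 CPM in WT WD and at 131 and 141 CPM in Tas1r3-/- WD, with a log2 fold change of 0.14 ± 0.13 (SE), or 0.065 without WT WD replicate 2. Akap7 and Akap17b also did not overlap, with log2 fold changes of 0.21 ± 0.16 (SE) and 0.35 ± 0.21 (SE), and of 0.19 and 0.15 without that library. Akap13 and Akap10 were lowest in WT WD replicate 1, at 41.1 and 18.0 CPM against at least 47.2 and 23.8 CPM in the other libraries. Their log2 fold changes were 0.079 ± 0.23 (SE) and 0.17 ± 0.22 (SE), or 0.37 and 0.45 without WT WD replicate 2. The mitochondrial anchor Akap1 and the nuclear anchor Akap8 had log2 fold changes of −0.053 ± 0.14 (SE) and 0.042 ± 0.15 (SE), and of −0.038 and −0.091 without WT WD replicate 2.

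Akap8l was the tested anchor gene with both knockout libraries below both WT WD libraries, at 141 and 134 CPM in WT WD and at 126 and 120 CPM in Tas1r3-/- WD. Its 4 values lay close together (log2 fold change −0.16 ± 0.12 (SE), adjusted p = 0.774 by edgeR, and −0.19 without WT WD replicate 2). Akap3 was at 1.37 and 1.65 CPM in WT WD and at 0.804 and 1.05 CPM in Tas1r3-/- WD, and Akap14 at 1.20 and 1.65 CPM and at 0.804 and 0.351 CPM. These were 2 to 10 counts a library, and neither was tested.

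The members were long genes. Their longest protein-coding transcripts had a median of 6.55 kb against 4.09 kb for all tested genes, and 11 of 42 were over 8 kb (26.2% against 9.19%). Fold changes of all genes moved with length in these libraries. The median was −0.14 up to 2 kb, −0.063 from 2 to 4 kb, 0.042 from 4 to 8 kb and 0.21 above 8 kb. Without WT WD replicate 2 it was also 0.21 above 8 kb. The members above 8 kb, among them Adcy7, Akap6, Akap9 and Akap11, had a median of 0.30, and of 0.35 without WT WD replicate 2.

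With an offset that takes the trend on length out of each library, the median over the 42 members went from 0.17 to 0.065, 0 members were called (0.0% of all genes) and 0 were at an unadjusted p under 0.05, beside 3.77% of 13903 genes. The log2 fold change of Akap6, with the longest transcript of all members, became 0.056, that of Akap9 0.14 and that of Akap11 0.21. Adcy7 kept 0.46. The cause of the trend was not tested.

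**Figure D4:**
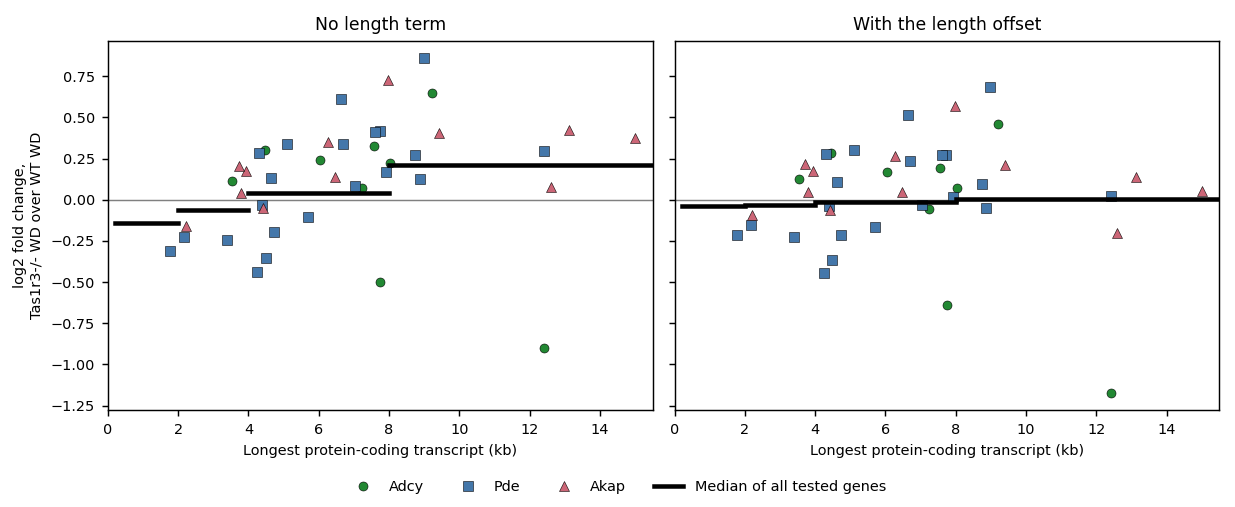
Log2 fold change of Tas1r3-/- WD over WT WD against the length of the longest protein-coding transcript in kb, for the 42 tested genes without a length term (left) and with the length offset (right). Black bars are medians of all tested genes in 4 length classes, which go from −0.14 to 0.21 on the left and from −0.040 to 0.0027 on the right.

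At the level of transcripts, 24 members had more than 1 transcript in the table and 101 member transcripts were tested. None was called, beside 0 of 25656 transcripts (0.0%), and 5 were at an unadjusted p under 0.05 (4.95% beside 4.56% of all transcripts). These 5 belonged to Adcy3, Akap11, Pde1a (2 of them) and Pde4c. Without WT WD replicate 2 no member transcript was called either. For Akap11, the main transcript held 62.1% and 68.7% of the estimated counts in WT WD, against 69.1% and 62.6% in the knockout, and the groups overlapped. For Pde4c, 1 transcript held 82.4% in both WT WD libraries and 11.0% and 8.98% in Tas1r3-/- WD. The split rests on few counts and is an estimate from shared reads. For Adcy4, the split was 66.2% in every library, to the digits given, whatever the counts.

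Of the pathway around the members, 37 of 39 listed genes were in the table and 33 were tested. The list held G protein alpha subunits, PKA subunits and inhibitors, EPAC, cyclic nucleotide-gated channels, POPDC proteins, soluble guanylyl cyclase, PKG and calmodulin. None of the 33 was called, beside 0.0% of all genes. At an unadjusted p under 0.05 was 1 of the 33, beside 5.38% of all genes, and it was higher in Tas1r3-/- WD. This was Rapgef3, which encodes the cAMP-activated exchange factor EPAC of Rap, at 57.2 and 61.5 CPM in WT WD and at 78.9 and 77.2 CPM in Tas1r3-/- WD (log2 fold change 0.39 ± 0.12 (SE), adjusted p = 0.756 by edgeR, and 0.45 without WT WD replicate 2). Its groups did not overlap. In the same sense 8 of the 33 lay above, beside 20.6% of all genes, and 5 below, beside 19.0%. Fold changes were positive for 21 of the 33, beside 49.0%, and for 15 without WT WD replicate 2. The G proteins were split, 4 positive and 3 negative (2 and 5 without WT WD replicate 2), with Gnas, the stimulatory subunit, at 2795 to 3395 CPM.

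PKA genes had a median fold change of 0.087 on the log2 scale, with 8 of 9 positive. Of the 9, 7 were lowest in WT WD replicate 2, and without it 4 were positive and the median was −0.016. The 3 calmodulin genes, whose product drives Adcy1, Adcy8 and the Pde1 enzymes, all had negative fold changes, with a median of −0.26, or −0.099 with 2 of 3 negative without WT WD replicate 2. Calm2 and Calm3 were below in both knockout libraries, and all 3 were highest in WT WD replicate 2. POPDC genes were too low to be tested, at 0.344 to 2.25 CPM.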

How the data were processed

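RNA was measured in 4 hypothalamus libraries, 2 of WT WD and 2 of Tas1r3-/- WD, made from poly(A) RNA after depletion of ribosomal RNA and sequenced on the Ion Torrent platform. Per the labels, STAR and Partek were used with the mm39 build. The authors deposited estimated counts for RefSeq transcripts, not normalized. The 4 tables of single samples were identical to the columns of the whole table, and 12.98% of values were whole numbers. Each transcript had at least 10.0 counts over the 4 libraries. Strandedness of the counting is not given in the sources used here.

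Of 30930 transcripts, 30886 were matched by RefSeq accession to a gene in a GRCm38.p6 name table. The other 44, which held 0.385% to 2.53% of a library, entered neither library sizes nor tests. The design had assumed gene counts, so transcripts were summed per gene and rounded. Coordinates and the longest protein-coding transcript came from GENCODE M39 on GRCm39, matched by symbol (15742 of 16335 genes, all 45 members). GRCm39 is the build the authors aligned to.

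The quasi-likelihood test of edgeR 4.0.16 (R 4.3.3) was run on all genes with TMM scaling, filterByExpr and Benjamini-Hochberg adjustment. A call needed 1.5-fold or more and an adjusted p below 0.05. The SE is the log2 fold change divided by the square root of its F statistic. CPM used TMM-scaled library sizes summed over the tested genes, and log2 differences between replicates added a prior count of 2. The code was tested on simulated data. Alternatives were DESeq2 1.42.0, limma-trend in limma 3.58.1, RLE size factors, library totals, other filters on low counts, a replicate block, an offset for gene length (loess, span 0.3) and each library left out.

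Members named with all values were those at an unadjusted p under 0.05, the 5 highest and 5 lowest fold changes, the highest per kb of each subfamily, and the 5 largest differences between WT WD libraries. Others were named to account for every member. Members, pathway genes and marker lists were chosen with earlier results of these data known. Emx1, of the cortex and hippocampus markers, was not analysed here.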

Additional observations from a re-analysis of the deposited data

How the results depend on the processing

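No member was called under any scaling, filter, test or offset tried, or without WT WD replicate 2 or either Tas1r3-/- WD library. Leaving out each library gave 0 to 11 members called, 0 to 22 at an unadjusted p under 0.05, 20 to 40 with groups that did not overlap, a median log2 fold change of 0.13 to 0.21 and 0 to 7 pathway genes called. The upper counts came without WT WD replicate 1, and the share of all genes called in that setting is given above. For groups that did not overlap, no share of all genes was taken with a library left out. A group left with 1 library overlaps less readily than a pair. The 20 to 40 therefore cannot be compared with the 17 of 42 from all libraries. DESeq2 put 2 members at an unadjusted p under 0.05 and the length offset 0, and that offset took the median to 0.065. The replicate numbers were checked as pairs: differences between replicates 1 and 2 of the groups correlated at 0.082 over genes. The WT WD difference includes a library that goes against its tissue label, so this value cannot decide whether the libraries are paired. With the replicate block, 0 members were called (0.0% of all genes) and the median was 0.17. At an unadjusted p under 0.05 were then 3 members, Adcy7, Akap5 and Akap9, beside 4.65% of all genes. Of the 42 members, 29 kept the sign of their log2 fold change when WT WD replicate 2 was left out and 38 when its partner was, 38 and 39 when Tas1r3-/- WD replicate 1 or 2 was, 38 with the length offset and 41 with limma-trend or the block. Among the 24 members named with all values, it turned for Adcy5 (−0.054) and Pde4dip (−0.051) with the length offset and for Pde7b with limma-trend (0.039) and the replicate block (0.033). With a library left out it turned for 10 of these 24, for 8 of them without WT WD replicate 2. The 8 ran from −1.65 to 0.78 for Adcy1, −0.13 to 0.94 for Adcy2, −0.90 to 0.064 for Adcy8, −0.74 to 0.18 for Pde1b, −0.71 to 0.47 for Pde4c, −0.42 to 0.50 for Pde7b, −0.15 to 1.09 for Pde8b and −0.037 to 0.67 for Pde11a. Without Tas1r3-/- WD replicate 1 the sign turned, of the 24, for Pde5a, from −0.13 to 0.79, and Pde10a, from −0.16 to 0.43, over the libraries left out. Leaving out a library leaves 1 in its group, assumed to vary like the other pair. The cause of these turns was not tested. Depth limited Akap3, Akap14, Pde4c and Pde6b most.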
